A study of Mus musculus with 10 samples.

Results

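Adrenomedullin (Adm), the peptide precursor gene with one of the steepest rises in the Nrf2 eyes, was followed beside 9 genes of its receptors and of angiogenic signalling. The 10 genes were Adm, its receptor Calcrl, the receptor partners Ramp1, Ramp2 and Ramp3, the growth factors Vegfa and Pgf, the growth factor receptors Kdr and Flt1, and the inhibitor Serpinf1. They were chosen by name from a table of 47729 genes, Adm because it had risen in these libraries. Its difference between the eyes is therefore given as a description, without a test. All 10 genes passed the filter on low counts, as did 16362 genes in all.

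RNA was measured in the RPE (retinal pigment epithelium), the cell layer between photoreceptors and choroid, of 5 wild-type CD1 mice at P40, postnatal day 40. Both eyes of each mouse received AAV-Best1-GFP under the retina, and 1 of the eyes, the Nrf2 eye, received AAV-Best1-Nrf2 in addition. These are adeno-associated viral vectors in which the human Best1 promoter restricts expression to the RPE, and Nrf2 is known as a transcription factor of antioxidant genes. The Nrf2 vector carried the human coding sequence, and it had no counterpart of another vector in the control eyes. After removal of the retina, the cleaned eyecup was put into RNA Protect, and RNA was purified from the supernatant. The libraries held 12298404 to 27310638 counts. Mouse Nfe2l2, the Nrf2 gene, rose from 88.7 ± 12.7 to 353 ± 53.6 CPM (counts scaled to the total of their library; mean ± SD, n = 5 eyes per group, as in all later values), and reads of the human sequence that matched the mouse gene cannot be told apart from its own. Of the RPE markers, Rpe65, an enzyme of the visual cycle, had 2781 to 4519 CPM in the control eyes and 198 to 1080 CPM in the Nrf2 eyes, whereas mouse Best1 was between 0.119 and 1.503 CPM in every library. The tissue also held RNA of other cells: 12 markers of endothelium summed to between 24.2 and 155 CPM per library, and 10 markers of rods to 155 to 18790 CPM, with the 2 highest rod sums in the control and the Nrf2 eye of mouse 2. In bulk tissue, fewer cells of a type and less RNA per cell cannot be told apart.

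Adrenomedullin is a secreted peptide that widens vessels and acts on endothelium. Its receptor is a protein pair: Calcrl forms a receptor for adrenomedullin with Ramp2 or Ramp3, and a receptor for the related peptide CGRP with Ramp1. The RPE is a known source of Vegfa, the main growth factor of vessels, on which the capillaries of the choroid depend, and of pigment epithelium-derived factor, the product of Serpinf1, which opposes vessel growth. Vegfa acts through Kdr, while Flt1 binds Vegfa and Pgf and signals weakly. Adm and Vegfa are both known to be induced by hypoxia.

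The reference sequences before the start sites were read to see which members carry letters known from antioxidant and hypoxia responses. RefSeq (GRCm38.p6, the build of the deposited table) gave 11 windows for 9 of the 10 genes, each of 250 bases before and 50 after a start site; Ramp2 had no entry. TGACNNNGC, the core of the antioxidant response element to which Nrf2 binds, was found on either strand in 12.4% of 32851 windows of all genes, and among the members in windows of Adm, Kdr and Pgf. The bases before the start site are shown for these 3 genes, which share the motif, and for Vegfa, which had none of the searched motifs in the window shown. Capitals mark TGACNNNGC and the hypoxia response cores ACGTG or, in its variant, GCGTG on either strand, and each sequence is read 5′ to 3′ along its gene.
Adm (chr7:110627407-110627656, + strand): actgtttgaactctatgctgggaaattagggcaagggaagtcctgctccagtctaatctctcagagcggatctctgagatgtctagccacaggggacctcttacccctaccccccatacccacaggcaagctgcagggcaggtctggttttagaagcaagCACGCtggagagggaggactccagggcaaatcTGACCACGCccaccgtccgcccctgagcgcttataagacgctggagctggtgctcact
Pgf (chr12:85177314-85177563, - strand): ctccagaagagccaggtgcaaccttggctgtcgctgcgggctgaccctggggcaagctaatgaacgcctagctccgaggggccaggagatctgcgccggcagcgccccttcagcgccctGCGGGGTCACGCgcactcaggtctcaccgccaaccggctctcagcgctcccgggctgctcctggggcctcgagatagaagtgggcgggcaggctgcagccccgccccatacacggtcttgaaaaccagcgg
Kdr (chr5:75978456-75978705, - strand): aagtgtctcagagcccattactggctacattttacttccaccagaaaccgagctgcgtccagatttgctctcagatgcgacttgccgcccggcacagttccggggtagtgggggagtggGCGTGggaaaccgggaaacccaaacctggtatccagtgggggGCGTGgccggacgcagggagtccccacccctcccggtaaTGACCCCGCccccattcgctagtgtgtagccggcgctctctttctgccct
Vegfa (chr17:46032378-46032627, - strand): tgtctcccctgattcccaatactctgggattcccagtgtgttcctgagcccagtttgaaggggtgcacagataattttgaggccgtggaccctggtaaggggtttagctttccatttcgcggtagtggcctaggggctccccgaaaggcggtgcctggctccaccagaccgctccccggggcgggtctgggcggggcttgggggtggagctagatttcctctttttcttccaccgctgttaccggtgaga
In Adm the match TGACCACGC began 58 bases before the start site and overlapped a GCGTG match of the other strand at -54, and another GCGTG match lay at -90. The matches of Kdr, at -50, and of Pgf, on the other strand at -131, had the same letters, TGACCCCGC, and the Pgf match also overlapped a GCGTG match. ACGTG, present in 19.6% of all windows, was found in a window of Serpinf1 at -93 and in another window of Vegfa at -211, which also held GCGTG. The GCGTG core, present in 32.4% of all windows, was found in windows of Adm, Calcrl, Kdr, Flt1, Ramp3, Pgf and Vegfa. TGANTCA, the AP-1 motif, present in 7.81% of all windows, was in none of the 11. These matches describe letters only.

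Adm (ENSMUSG00000030790, chr7:110627661-110629820, + strand, mm10) was close to the limit of detection in the control eyes and abundant in every Nrf2 eye. Its level in the control eyes of mice 1 to 5 was 1.22, 1.17, 0.140, 0.657 and 0.989 CPM, on 24, 19, 2, 11 and 27 counts. In the Nrf2 eyes of the same mice it was 31.9, 59.2, 30.9, 60.2 and 41.8 CPM, on 700, 1457, 822, 741 and 689 counts. The lowest Nrf2 eye lay far above the highest control eye, and the Nrf2 eyes of mice 2 and 4 were the highest. The mean was 0.836 ± 0.448 CPM in control and 44.8 ± 14.3 CPM in Nrf2 eyes, a log2 fold change of 5.71 with a standard error (SE) of 0.42 from the differences within 5 mice, the 24th highest of the 16362 tested genes. The groups did not overlap in this direction for 3.87% of tested genes; Adm was chosen for this contrast, and nothing is read from that share. The difference within a mouse ran from 4.66 to 7.04 on the log2 scale, and the highest, in mouse 3, rested on the control eye with 2 counts: its ratio of 221 has an exact 95% interval of 61.1 to 1831 for counting error alone. The antisense gene Gm28863, which lies across Adm on the opposite strand, had 4 counts in all libraries together.

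**Figure D1:**
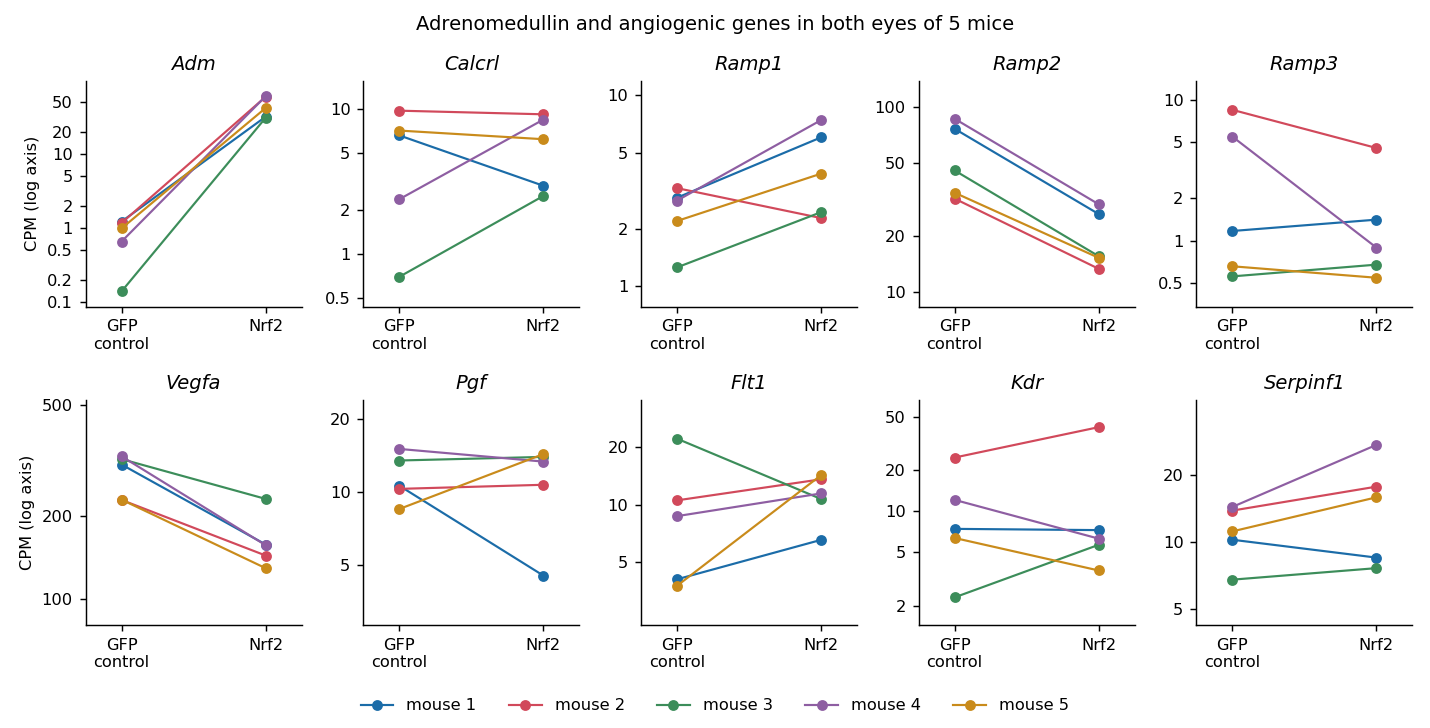
CPM of the 10 genes (log axes, one scale per gene) in the GFP control and the Nrf2 eye of 5 mice; each point is 1 library and each line joins the eyes of 1 mouse. Adm goes from at most 1.22 CPM to at least 30.9 CPM, the lines of Ramp2 and Vegfa all fall, and those of the other genes cross or differ in direction.

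RNA of macrophages and microglia rose in the same eyes as Adm. Of 12 markers, 10 passed the test as higher, where 3.60% of all tested genes did. The median log2 fold change was 4.00 over the list, and none of the 12 was at 0 in all libraries. The sum of the 12 markers was 177 to 303 CPM in control and 458 to 2261 CPM in Nrf2 eyes. In the Nrf2 eyes of mice 1 to 5 the sum was 1069, 458, 806, 1367 and 2261 CPM, beside 31.9, 59.2, 30.9, 60.2 and 41.8 CPM of Adm. Mouse 2 had the lowest sum with the next to highest Adm and mouse 5 the highest sum with an intermediate Adm, whereas mouse 3 was low and mouse 4 high in both. Per 100 CPM of these markers, Adm was at 0.0492 to 0.574 CPM in control and at 1.85 to 12.95 CPM in Nrf2 eyes, higher in 5 of 5 mice. Csf1r, a growth factor receptor of these cells, made up 72.4% to 84.1% of the sum in control and 9.83% to 20.6% in Nrf2 eyes and had a log2 fold change of -0.57 (SE 0.33, edgeR adjusted p = 0.301). The 11 other markers summed to 41.5 to 80.1 CPM in control and 397 to 2039 CPM in Nrf2 eyes. Per 100 CPM of these 11, Adm was at 0.308 to 2.38 CPM in control and at 2.05 to 14.9 CPM in Nrf2 eyes, higher in 4 of 5 mice and lower in mouse 5, so that the groups overlapped. Which cells hold the Adm RNA was not tested.

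**Figure D2:**
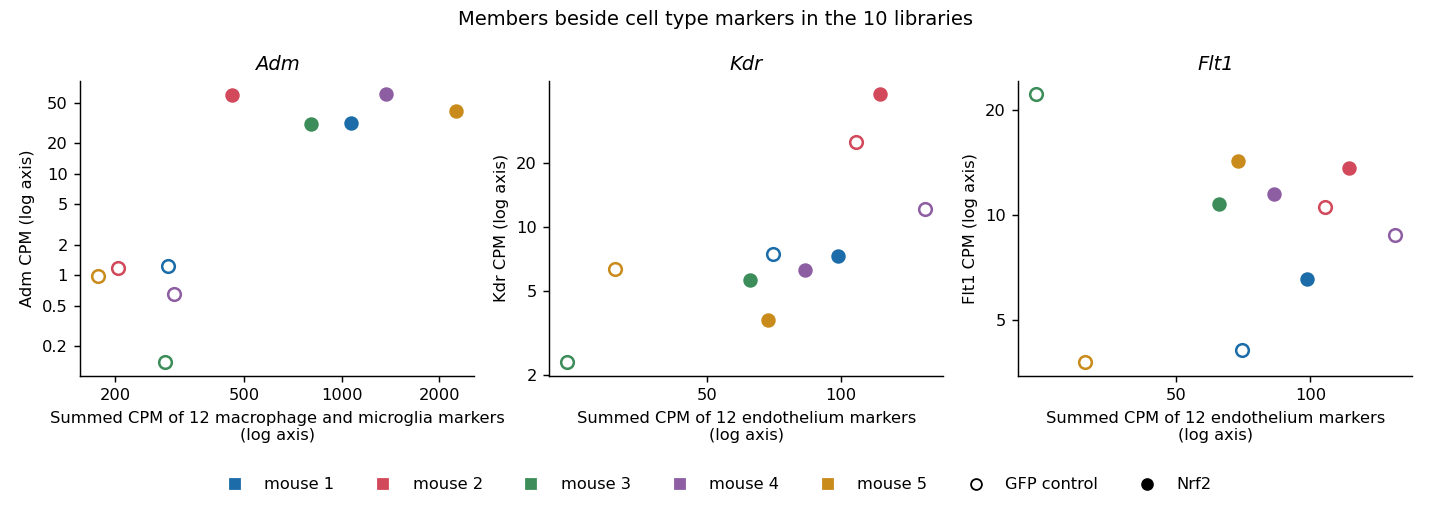
Adm against the summed CPM of 12 macrophage and microglia markers, and Kdr and Flt1 against that of 12 endothelium markers, in each of the 10 libraries (log axes); open points are GFP control eyes, filled points Nrf2 eyes, and colours are mice. The Nrf2 eyes are above the control eyes in both Adm and the macrophage sum, and the highest Flt1 value, 22.1 CPM, lies at the lowest endothelium sum, 24.2 CPM.

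Among the receptor genes of adrenomedullin, Ramp2 fell and the others did not pass the test. Ramp2 (ENSMUSG00000001240, chr11:101246028-101259546, + strand), the partner that makes Calcrl an adrenomedullin receptor, had 76.6, 32.0, 45.5, 86.8 and 34.5 CPM in the control eyes of mice 1 to 5. In their Nrf2 eyes it had 26.4, 13.3, 15.6, 29.8 and 15.3 CPM. Every Nrf2 eye lay under every control eye, which held for 2.41% of tested genes, and the mice kept the same order in both groups, with mouse 4 highest and mouse 2 lowest. The mean was 55.1 ± 25.1 CPM in control and 20.1 ± 7.48 CPM in Nrf2 eyes, a log2 fold change of -1.43 (SE 0.07, edgeR adjusted p = 0.000544). Although the control eyes ranged from 32.0 to 86.8 CPM, the log2 difference within a mouse stayed between -1.60 and -1.26, and its SE was the smallest of the 10 genes. Exons of Vps25, a sorting complex gene on the same strand, overlap those of Ramp2; Vps25 had 107 ± 7.70 CPM in control and 97.9 ± 10.5 CPM in Nrf2 eyes, a log2 fold change of -0.15 (edgeR adjusted p = 0.581).

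Calcrl (ENSMUSG00000059588, chr2:84330626-84425411, - strand), the receptor itself, had 6.58, 9.73, 0.698, 2.39 and 7.10 CPM in the control eyes of mice 1 to 5 and 2.96, 9.19, 2.52, 8.46 and 6.19 CPM in the Nrf2 eyes. It was higher in 2 mice, 3 and 4, and lower in the other 3, with a log2 fold change of 0.35 (SE 0.56, edgeR adjusted p = 0.7999). Ramp1 (ENSMUSG00000034353, chr1:91179822-91225196, + strand), the CGRP receptor partner, had 2.49 ± 0.788 CPM in control and 4.40 ± 2.25 CPM in Nrf2 eyes, a log2 fold change of 0.73 (SE 0.32, edgeR adjusted p = 0.286). It was higher in 4 of 5 mice, all but mouse 2. Ramp3 (ENSMUSG00000041046, chr11:6658521-6677475, + strand), the other partner for adrenomedullin, had 0.559 to 8.50 CPM in control and 0.546 to 4.56 CPM in Nrf2 eyes. Its log2 fold change of -0.68 (SE 0.53, edgeR adjusted p = 0.554) did not pass the test, and its highest values were those of mouse 2 in both groups. The log2 fold change was -0.05 with the rod covariate, -1.28 with the endothelium covariate and -0.17 without mouse 4. The Gm11978 transcript, which overlaps Ramp3 on the other strand, had 5 counts in all libraries together.

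The 3 Ramp genes were also set against each other, as shares of their summed CPM per kb of merged exons. Ramp2 held 92.7%, 57.3%, 94.4%, 84.3% and 89.7% of the sum in the control eyes of mice 1 to 5, and 72.6%, 49.9%, 78.4%, 74.5% and 73.4% in their Nrf2 eyes. The share was lower in the Nrf2 eye of 5 of 5 mice, and Ramp2 remained the highest of the 3 in every library. The share of Ramp1 was higher in 5 of 5 mice, with a mean of 4.46 ± 1.73% in control and 16.3 ± 4.79% in Nrf2 eyes. With the principal transcript as length, which is 1178 bases for Ramp2 against 3301 bases of merged exons, the share of Ramp1 was 2.35 ± 1.12% in control and 9.01 ± 2.27% in Nrf2 eyes, and that of Ramp2 91.8 ± 8.66% and 83.7 ± 7.34%, with the same direction in 5 of 5 mice. These shares are made in part from the fall of Ramp2 and were not tested apart from it.

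Vegfa was lower in the Nrf2 eye of every mouse, in each of the 5 by less than Ramp2 on the log2 scale. Vegfa (ENSMUSG00000023951, chr17:46016993-46032369, - strand) had 305, 228, 319, 327 and 228 CPM in the control eyes of mice 1 to 5. In their Nrf2 eyes it had 157, 144, 229, 156 and 129 CPM. The groups overlapped only through the Nrf2 eye of mouse 3, which lay just above the control eyes of mice 2 and 5. The mean was 281 ± 49.4 CPM in control and 163 ± 38.8 CPM in Nrf2 eyes, a log2 fold change of -0.81 (SE 0.11, edgeR adjusted p = 0.00853), and the log2 difference within a mouse ran from -1.13 in mouse 4 to -0.46 in mouse 3. Pgf (ENSMUSG00000004791, chr12:85166635-85177790, - strand), placental growth factor, had 11.6 ± 2.64 CPM in control and 11.4 ± 4.09 CPM in Nrf2 eyes. The log2 fold change was -0.11 (SE 0.29, edgeR adjusted p = 0.886), and without mouse 1, whose Nrf2 eye had the lowest value of 4.51 CPM, it was 0.17.

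Ramp2 and Vegfa were lower in the same eyes in which the sum of the 12 RPE markers was lower. This sum was 21550 to 44660 CPM in control and 10980 to 29340 CPM in Nrf2 eyes, lower in 5 of 5 mice. Of the 12 markers 6 passed the test as lower, where 2.73% of all tested genes did. None passed as higher, and none was at 0 in all libraries. The log2 fold change was under 0 for 8 of the markers and at or above 0 for the other 4, such as the pigment enzyme Tyr with 0.88 (SE 0.54, edgeR adjusted p = 0.338). The part of this in the 2 falls was not tested. With the endothelium markers as a covariate, the log2 fold change was -1.46 for Ramp2 (edgeR adjusted p = 0.00337) and -0.92 for Vegfa (edgeR adjusted p = 0.0108). With the rod markers as a covariate it was -1.39 (edgeR adjusted p = 0.00521) and -0.74 (edgeR adjusted p = 0.0413).

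The Vegfa receptors did not move in one direction. Kdr (ENSMUSG00000062960, chr5:75932827-75978458, - strand), the main signalling receptor, had 7.40, 24.9, 2.30, 12.1 and 6.33 CPM in the control eyes of mice 1 to 5 and 7.24, 41.8, 5.64, 6.26 and 3.64 CPM in the Nrf2 eyes. Mouse 2 was the highest in both groups, and the log2 fold change of 0.03 (SE 0.44, edgeR adjusted p = 0.983) was made of differences from -1.01 to 1.27. Both eyes of mouse 2 also had the highest rod marker sums, 18790 and 7377 CPM. The log2 fold change of Kdr was -0.13 without mouse 2, -0.20 without mouse 3 and 0.25 with the rod covariate. Flt1 (ENSMUSG00000029648, chr5:147561604-147726011, - strand) had 4.08, 10.5, 22.1, 8.72 and 3.77 CPM in the control eyes and 6.56, 13.6, 10.7, 11.5 and 14.3 CPM in the Nrf2 eyes. It was higher in 4 of 5 mice and lower in mouse 3, with a log2 fold change of 0.44 (SE 0.45, edgeR adjusted p = 0.634). The control eye of mouse 3 stood apart in the ratio of the 2 receptors per kb: Flt1 was at 6.42 times the level of Kdr there, against 0.283 to 0.481 times in the other control eyes and 0.218 to 2.62 times in the Nrf2 eyes. That eye had the highest Flt1 of all libraries and the lowest sum of endothelium markers, 24.2 CPM. The 12 endothelium markers summed to 24.2 to 155 CPM in control and 62.4 to 122 CPM in Nrf2 eyes. Their median log2 fold change was 0.55, with all 12 above 0, and ran from -0.10 to 0.75 over the alternatives. Of these markers, 0 passed edgeR's test and 0 passed with DESeq2.

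Serpinf1 (ENSMUSG00000000753, chr11:75409769-75422701, - strand) had 10.3, 13.9, 6.77, 14.4 and 11.2 CPM in the control eyes of mice 1 to 5 and 8.52, 17.8, 7.63, 27.4 and 15.9 CPM in the Nrf2 eyes. It was higher in 4 of 5 mice, and its log2 fold change of 0.33 (SE 0.17, edgeR adjusted p = 0.391) did not pass the test. The level of Vegfa relative to Serpinf1, the growth factor against the inhibitor, was lower in 5 of 5 mice: it was 9.04 to 25.9 per kb in control and 3.14 to 16.6 per kb in Nrf2 eyes. With the principal transcript as length it was 46.0 to 132 and 15.99 to 84.2. The ranges overlapped, and the ratio uses the fall of Vegfa again.

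Of the 9 genes other than Adm, 0 passed the test as higher and 2 as lower, Ramp2 and Vegfa, against 6.33% of tested genes called in either direction, 3.60% higher and 2.73% lower. The same 2 genes, and no other of the 9, had an unadjusted p under 0.05 and passed with DESeq2. The median log2 fold change of the 9 was 0.03, beside -0.01 over all tested genes. The groups did not overlap for Ramp2 among the 9, and for Adm, which was chosen for its rise, as they did not for 6.28% of tested genes in either direction. Adm, Ramp2 and Vegfa moved the same way in 5 of 5 mice, as did 20.2% of tested genes, and the other 7 had at least 1 mouse in each direction.

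**Figure D3:**
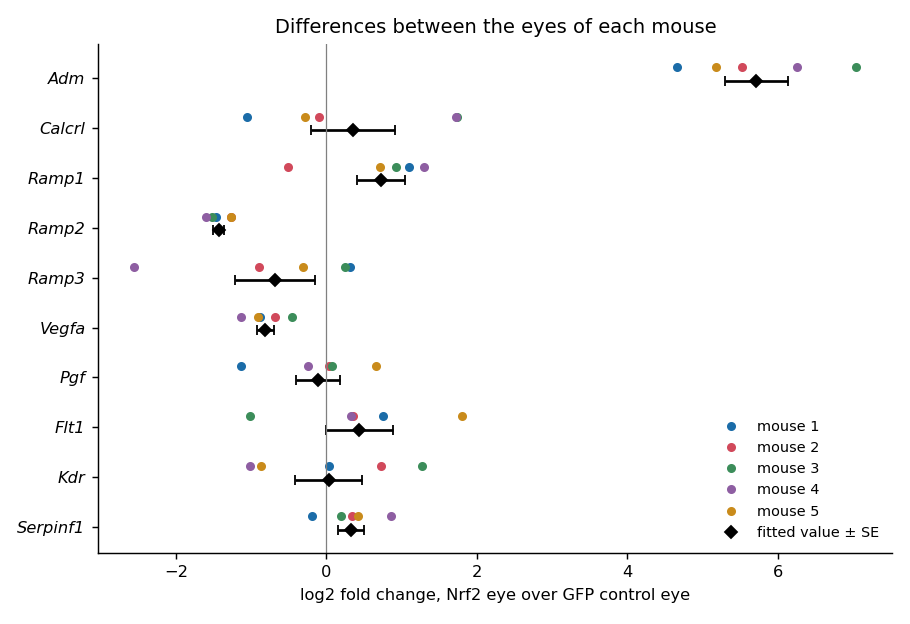
Log2 fold change of the 10 genes, Nrf2 eye over GFP control eye; coloured points are the 5 mice and black diamonds the fitted value ± SE of the mouse differences. Adm lies between 4.66 and 7.04, the Ramp2 points lie within -1.60 to -1.26, and for 7 genes the mice fall on both sides of 0.

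Levels of different genes were compared as CPM per kb of merged exons. In the control eyes Vegfa was the highest, with 65.6 ± 11.5 CPM per kb, followed by Ramp2 with 16.7 ± 7.59, and the ranges of these neighbours and of Ramp2 and Serpinf1, with 4.79 ± 1.302, did not overlap. Then came Pgf, Ramp3, Kdr, Calcrl, Ramp1, Flt1 and Adm, from 3.99 ± 0.908 down to 0.516 ± 0.277 CPM per kb, with overlapping ranges between all neighbours. In the Nrf2 eyes Vegfa was still at the top of the order with 38.1 ± 9.04 CPM per kb, and Adm was next with 27.7 ± 8.82; Vegfa was above Adm in 3 of 5 Nrf2 eyes, so these neighbours were not separated. Adm and Serpinf1, the next in the order with 6.55 ± 3.40, had separate ranges, and Ramp2, Pgf, Ramp1, Kdr, Calcrl, Ramp3 and Flt1 followed with overlapping ranges between neighbours. The ratio of Adm to Vegfa per kb was 0.00116 to 0.0136 in control and 0.357 to 1.09 in Nrf2 eyes. With the length of the principal transcript, which is 654 bases for Vegfa against 4285 bases of merged exons, Vegfa was above Adm in 5 of 5 Nrf2 eyes, Ramp2 was next below Adm there with overlapping ranges, and the ratio of Adm to Vegfa was 0.000206 to 0.00242 in control and 0.0634 to 0.194 in Nrf2 eyes. Adm moved from the 10th to the 2nd place with either length.

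**Figure D4:**
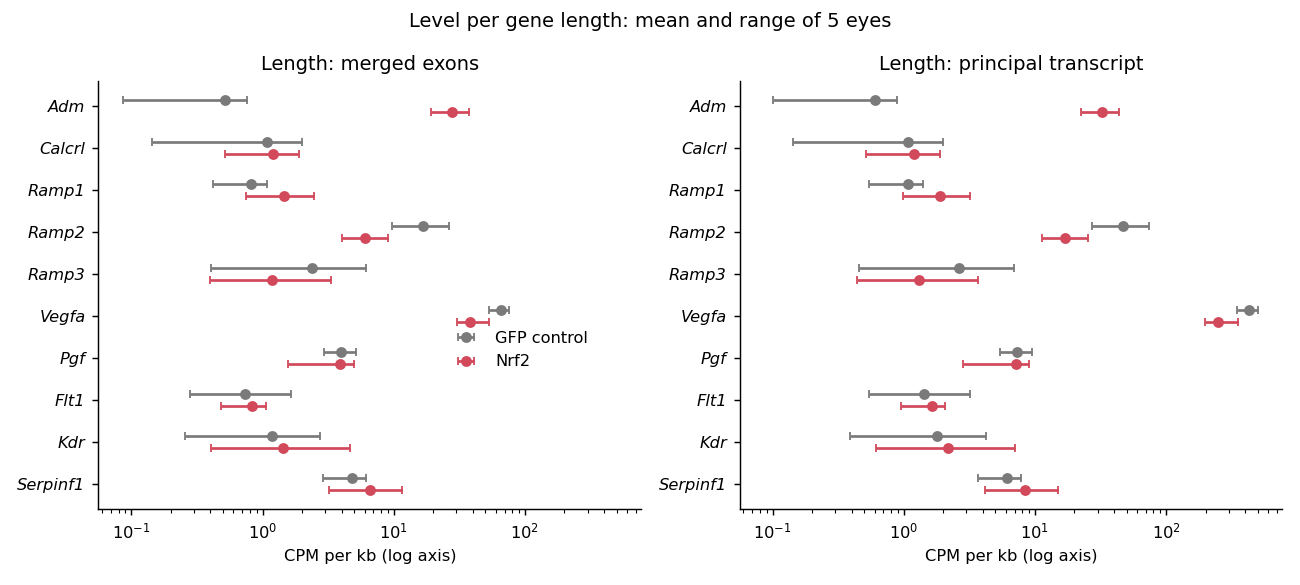
CPM per kb of the 10 genes (log axes) with merged exons on the left and the principal transcript on the right as length; points are means and bars the range of the 5 eyes of a group. Adm moves from the lowest mean to the one next to Vegfa, and the bars of the 2 groups are apart for Adm and Ramp2 and overlap for the other 8 genes, for Vegfa only at their ends.

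The genes whose pattern was most like that of Adm were found by the root mean square difference of log2 CPM, centred on the control eyes, over the 10 libraries. The nearest of 16361 genes was Hmox1, heme oxygenase, at a distance of 0.68, where the median gene was at 4.13. Hmox1 went from 10.03 ± 2.95 to 692 ± 124 CPM, with a fitted log2 difference of 6.12 (SE 0.22). Next were Slc40a1, the iron exporter ferroportin, at 0.71, Clec4f, a lectin, at 0.74, Acox2, a peroxisomal oxidase, at 0.75, and Gstm1, a glutathione transferase, at 0.79. Slc40a1 went from 1.90 ± 1.00 to 57.6 ± 18.1 CPM, Acox2 from 1.45 ± 0.755 to 84.5 ± 10.1 CPM and Gstm1 from 80.4 ± 24.8 to 5384 ± 1119 CPM. Clec4f had no count in any control eye, which allows up to 0.110 to 0.209 CPM (3 counts per library), and 4.86 ± 2.57 CPM in the Nrf2 eyes. The measure favours genes of a like rise, and these values are a description.

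The other genes of the pathways were counted by list. Over the 6 lists, 3 of 71 tested genes passed the test as higher and 6 as lower, 12.7% in all, where 6.33% of all tested genes passed. The lists were chosen with earlier results of these data known, so nothing is read from that difference. Without mouse 2 only 2 genes of these lists passed, where 3.58% of all tested genes did, without mouse 4 or mouse 5 it was 5 (3.66% and 4.15% of all tested genes), and with DESeq2 14 (9.44% of all tested genes). Of the 10 genes reported here of the adrenomedullin and CGRP family, 5 were tested. Of these, 0 passed edgeR's test in either direction, with a median of 0.16, and with DESeq2 2 passed as higher, Pam and Gnas. Pam, the enzyme that amidates the peptide, had 20.2 ± 5.70 and 32.0 ± 6.96 CPM, a log2 fold change of 0.66 (SE 0.24, edgeR adjusted p = 0.121), and passed without mouse 1, with 0.89 (edgeR adjusted p = 0.0330). Ackr3, a decoy receptor that takes up adrenomedullin, had a log2 fold change of -0.44 (SE 0.13, edgeR adjusted p = 0.0979) and was lower in 5 of 5 mice. Gnas, the G protein subunit that couples the receptor to cyclic AMP, had 0.35 (SE 0.07, edgeR adjusted p = 0.159), Mme, a peptide-degrading enzyme, 0.16 (SE 0.35), and Crcp, a receptor component, -0.02 (SE 0.09). The peptide genes Adm2, Calca, Calcb and Iapp and the receptor Calcr had too few counts to be tested, at most 0.895 CPM in any library.

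Among the 13 angiogenic ligands, all tested, 1 passed as higher and 1 as lower, and the median was -0.08 on the log2 scale. Of all tested genes, 3.60% passed as higher and 2.73% as lower. With DESeq2 1 ligand passed as higher and 2 as lower, where 9.44% of all tested genes passed. Angpt1, which stabilizes vessels through the Tek receptor, rose from 2.33 ± 1.38 to 11.97 ± 3.74 CPM (log2 fold change 2.48, SE 0.39, edgeR adjusted p = 0.00867). Angptl4, a secreted lipase inhibitor, fell from 53.4 ± 21.4 to 14.7 ± 7.14 CPM (log2 fold change -1.89, SE 0.19, edgeR adjusted p = 0.00152). The groups of both were separate. Angpt1 had at most 4.29 CPM in control and at least 8.42 CPM in Nrf2 eyes. Angptl4 had at least 30.1 CPM in control and at most 25.6 CPM in Nrf2 eyes. Groups were separate for 3.87% of tested genes as higher and 2.41% as lower. Both ligands are named because they passed the test, and nothing is read from these shares. Vegfb and Pdgfa had log2 fold changes of -0.08 (SE 0.17) and -0.49 (SE 0.16), with edgeR adjusted p = 0.862 and 0.108. Of 15 tested angiogenic receptors, 0 passed in edgeR and 0 in DESeq2, and the median was 0.24 (-0.15 to 0.45 over the alternatives). Without mouse 1 the guidance receptor Nrp1 passed, with a log2 fold change of 0.90 (edgeR adjusted p = 0.0213), against 0.60 (SE 0.29, edgeR adjusted p = 0.220) over all mice; it is named after its values were seen. Fgfr1 had -0.11 (SE 0.18) and Notch1 -0.17 (SE 0.19).

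Of 9 tested inhibitors of angiogenesis, 0 passed as higher and 2 as lower, with a median of 0.14 (-0.30 to 0.44 over the alternatives). Of all tested genes, 2.73% passed as lower. Timp3, a matrix protease inhibitor made by the RPE, fell from 3730 ± 779 to 1709 ± 624 CPM (log2 fold change -1.20, SE 0.21, edgeR adjusted p = 0.0153). Col4a3, a basement membrane collagen whose fragment tumstatin is the inhibitor, fell from 174 ± 60.8 to 85.3 ± 24.0 CPM (log2 fold change -1.02, SE 0.20, edgeR adjusted p = 0.0149). Without mouse 2 neither passed, with log2 fold changes of -1.07 and -1.02 (edgeR adjusted p = 0.0697 and 0.0505), and Col4a3 also missed the threshold without mouse 5 (edgeR adjusted p = 0.0541). With the rod covariate Timp3 kept a log2 fold change of -1.27 and did not pass (edgeR adjusted p = 0.0527). Thbs1 and Col18a1 had log2 fold changes of 0.19 (SE 0.16) and 0.27 (SE 0.24).

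Genes of the hypoxia response were counted in 2 lists, beside 6.33% of all tested genes called. Of 7 regulators of the hypoxia-inducible factors, 0 passed as higher and 1 as lower, with a median of -0.19. It was Epas1, a subunit of these factors, from 281 ± 69.6 to 177 ± 49.9 CPM (log2 fold change -0.69, SE 0.15, edgeR adjusted p = 0.0284), and it did not pass without mouse 2, 3, 4 or 5 (edgeR adjusted p = 0.0699 to 0.11), nor with the rod covariate (log2 fold change -0.54, edgeR adjusted p = 0.0704). Hif1a had a log2 fold change of -0.06 (SE 0.23) and Egln2, an oxygen-sensing hydroxylase, -0.10 (SE 0.08). Of 22 genes known to be induced by hypoxia, 2 passed as higher and 2 as lower, with a median of 0.15. With DESeq2 3 passed in each direction, where 9.44% of all tested genes passed. Pfkfb4, a regulator of glycolysis, rose (log2 fold change 1.12, SE 0.25, edgeR adjusted p = 0.0240), as did Bnip3, a mitophagy receptor (0.70, SE 0.16, edgeR adjusted p = 0.0291). Car12, a carbonic anhydrase, fell (-0.95, SE 0.17, edgeR adjusted p = 0.0149), as did Ddit4, an mTOR inhibitor (-0.78, SE 0.14, edgeR adjusted p = 0.0237). Without mouse 2 none of the 4 passed, with log2 fold changes of 1.08, 0.78, -0.86 and -0.79 in this order (edgeR adjusted p = 0.0940, 0.0692, 0.0657 and 0.0690); Ddit4 also missed the threshold when mouse 1, 3, 4 or 5 was left out, Bnip3 without mouse 3, 4 or 5, and Pfkfb4 without mouse 1 or 4. With the rod covariate Pfkfb4, Bnip3 and Ddit4 had log2 fold changes of 0.95, 0.67 and -0.66 and did not pass (edgeR adjusted p = 0.0970, 0.128 and 0.0905), and with the endothelium covariate Bnip3 had 0.64 and did not pass (edgeR adjusted p = 0.0988). The glucose transporter Slc2a1 and the glycolytic enzyme Eno1 had log2 fold changes of -0.38 (SE 0.14, edgeR adjusted p = 0.202) and -0.15 (SE 0.07, edgeR adjusted p = 0.562). Lox, a collagen crosslinking enzyme named after its values were seen, was higher in 5 of 5 Nrf2 eyes and did not pass over all mice (1.58, SE 0.47, edgeR adjusted p = 0.0972), but passed without mouse 1 (2.02, edgeR adjusted p = 0.0445). Stc2 of the same list, also named after its values were seen, was lower in 5 of 5 Nrf2 eyes. It went from 1.61 ± 0.268 to 0.353 ± 0.401 CPM and did not pass (-2.53, SE 0.50, edgeR adjusted p = 0.0710).

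**Figure D5:**
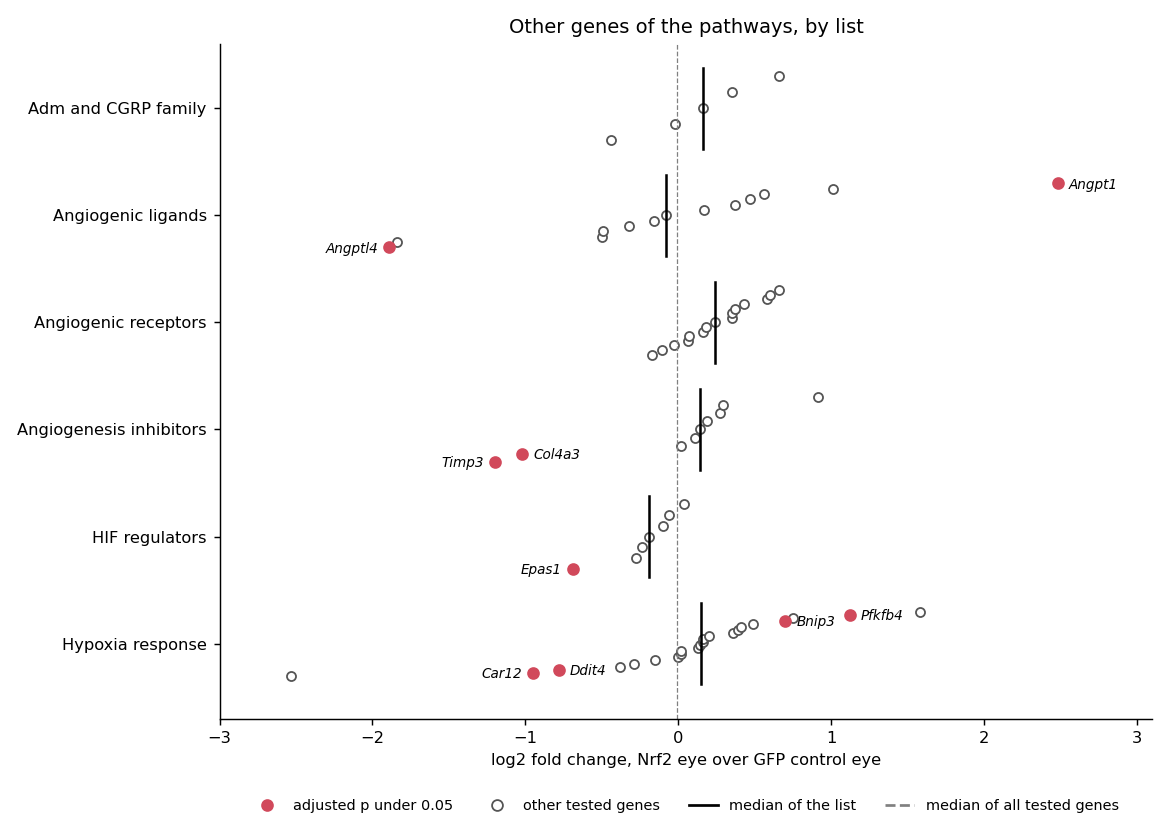
Log2 fold change, Nrf2 eye over GFP control eye, of the tested genes reported of 6 pathway lists without the 10 members; filled points passed the test, open points did not, black bars are list medians and the dashed line is the median of all tested genes. The 9 filled points lie on both sides of 0, 3 higher and 6 lower, and no receptor is filled.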

How the data were processed

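Libraries of 10 eyes, 5 Nrf2 and 5 GFP control, were grouped by the treatment label and paired by the animal number in the labels. The deposited table holds raw counts of whole reads per Ensembl gene, made by the authors by alignment to mm10. The polyA RNA came from the supernatant of the cleaned eyecup and was amplified with a low-input kit. Counts were made with featureCounts and in parallel with Salmon (0.8.2 per the submitters' processing notes). Which table was deposited, the strand setting and filters are not given in the sources used here. Of 47729 genes, 15729 had no count and 47310 had a GENCODE M21 entry, which gave symbols, positions and lengths. There were 0 columns of other samples.

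Differences were tested over all genes with edgeR 4.0.16 in R 4.3.3 (filterByExpr, TMM, quasi-likelihood test, mouse as a block, Benjamini-Hochberg adjustment, threshold 0.05). Log2 fold changes are fitted values, and SE is the SD of the differences between the eyes of 5 mice, in log2 CPM with a prior count of 2, over the root of 5. CPM are scaled to the library total. A count of 0 allows 3 counts, 0.110 to 0.244 CPM; this floor and the interval of a ratio cover only the error of counting, as reads from amplified RNA are not separate molecules. Exon lengths are merged over transcripts; the principal transcript and the macrophage marker sum without Csf1r were added after seeing the data. The steps were tested on simulated data.

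Deviations from group means correlated across genes between eyes of a mouse (r from 0.19 to 0.71, median 0.25) and less between mice (-0.42 to 0.28, median -0.08). One gene of the family list is not reported here. The members and lists were chosen with earlier results of these data known. The text names all members, the tested family genes, list genes past the threshold, up to 3 others per list by mean CPM, and the 5 genes nearest to Adm. Alternatives were no block, DESeq2 1.42.0, RLE factors, library totals, no filter, a mean of at least 50 counts, thinning to the smallest library total, rod or endothelium covariates, and each mouse left out.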

Additional observations from a re-analysis of the deposited data

Results flagged for a closer look

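In 78 groups of 5 eyes of the named genes, 3 held a library whose gap to the others was large for the range of its group, where chance gives about 3.9. For Pam, the Nrf2 eye of mouse 1 had a log2 CPM of 4.43, and the other Nrf2 eyes lay between 5.02 and 5.19. For Mme, the control eye of mouse 4 had 3.86, and the other control eyes lay between 4.42 and 4.51. For Thbs1, the Nrf2 eye of mouse 3 had 11.24, and the other Nrf2 eyes lay between 9.97 and 10.32. None of the 10 members was among them.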

How the results depend on the processing

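Ramp2 and Vegfa were called in all 14 alternatives, with log2 fold changes of -1.47 to -1.34 and -0.92 to -0.70 and edgeR or DESeq2 adjusted p of at most 0.0339 and 0.0447. Adm kept a log2 fold change of 5.47 to 6.02, and none of the other 7 members was called. Without the replicate block for the mouse, 755 genes were called against 1036, 687 of them shared, the 2 members still passed, and 5 pathway genes were called against 9; the calls of Col4a3, Epas1, Car12 and Bnip3 were lost, with log2 fold changes of -1.03, -0.67, -0.91 and 0.70 against -1.02, -0.69, -0.95 and 0.70. Over all genes DESeq2 called 1823 of 19309, with 14 pathway genes, and the rod covariate 551, with 4. Leaving out 1 mouse gave 584 to 857 genes and 2 to 10 pathway genes. With the endothelium covariate 483 of the called genes were higher and 599 lower, against 589 and 447. The median of all tested genes stayed within -0.02 to 0.04. Among the named genes, those whose sign changed passed in no alternative. With the rod covariate the log2 fold change was -0.10 for Calcrl, -0.12 for Mme and 0.03 for Vegfb. With the endothelium covariate it was -0.25 for Kdr and 0.00 for Thbs1. Over the mice left out in turn it ran from -0.31 to 0.17 for Pgf, -0.20 to 0.33 for Kdr, -0.07 to 0.05 for Crcp, -0.08 to 0.39 for Mme, -0.19 to 0.05 for Vegfb, -0.23 to 0.08 for Fgfr1 and -0.17 to 0.16 for Hif1a. The medians of the 9 tested members (-0.25 to 0.18), the ligands (-0.10 to 0.13), receptors, inhibitors and endothelium markers changed sign in at least 1 alternative, and those of the HIF regulators and hypoxia genes in none. The cause was not tested. Counts of 2 to 27 limit Adm in the control eyes, and values under 0.244 CPM are not separable from 0 in every library.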
